A study of Rattus norvegicus with 2 samples.

Results

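Srebf1, the gene of the transcription factor SREBP-1, and the lipid synthesis genes commonly read beside it were followed through the cell types of skeletal muscle from 1 rat-mouse chimera and 1 SD (Sprague-Dawley) rat by single-cell RNA-Seq. The set was chosen by gene name. It comprised Srebf1, Srebf2, Fasn, Scd, Scd1, Acaca, Acly, Elovl6, Me1 and Insig1, which gave 9 of 23373 rat genes (rat carries Scd under that name) and 9 of 25906 mouse genes (mouse carries Scd1) in the count tables. The set was proposed after the rise of Srebf1 in myofibre barcodes had been seen in these libraries, so the comparison of myofibre barcodes between the animals is given as a description and carries no test.

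The chimera was an SD rat that had been injected at the morula stage with mouse induced pluripotent stem cells (iPSCs). The iPSCs were derived from Dmd mdx; Pax7-nGFP mouse fibroblasts, which carry the dystrophin mutation of the mdx mouse and a nuclear GFP reporter driven by Pax7, and their mutated Dmd gene had been edited with CRISPR/Cas9. The control was muscle of an SD rat without injected cells, and neither library comes with a stated age or treatment beyond this. Muscle from several body sites of an animal was digested with collagenase II, live cells were sorted on a Calcein viability dye, and 10x Genomics 3′ libraries were prepared. Each animal gave 1 library, so animal, digestion and library cannot be told apart, and every interval below (95%, exact Poisson or binomial) covers counting error only.

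SREBP-1 and its paralog SREBP-2, made from Srebf2, are held in the endoplasmic reticulum by INSIG proteins when sterols are plentiful. They are cut and released to the nucleus when sterols fall, and insulin and liver X receptors raise the transcription of Srebf1 itself. SREBP-1 mainly drives fatty acid synthesis: ATP citrate lyase (Acly) makes cytosolic acetyl-CoA, acetyl-CoA carboxylase 1 (Acaca) makes malonyl-CoA, fatty acid synthase (Fasn) builds palmitate, Elovl6 elongates it, stearoyl-CoA desaturase (Scd, Scd1) introduces a double bond, and malic enzyme (Me1) supplies NADPH. SREBP-2 mainly drives sterol synthesis. Muscle is not a main site of fatty acid synthesis, and in rodents liver and adipose tissue hold most of it.

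The regions upstream of the start sites are shown for Srebf1, the member at least 2-fold apart between the animals in myofibre barcodes, and for its paralog Srebf2, whose myofibre levels overlapped. Sequences are 250 bases upstream of a start site, 5′ to 3′ on the gene's strand, from RefSeq on build GRCr8, which is not the build to which the libraries were mapped. Rat Srebf1 has 2 annotated starts, 10154 bases apart (chr10:45529165-45529414 and chr10:45519011-45519260, both on the minus strand), and Srebf2 has 1 (chr7:115543057-115543306, plus strand). Capitals mark CCAAT boxes, read as CCAAT on either strand, the motif bound by nuclear factor Y.
Srebf1, upstream start: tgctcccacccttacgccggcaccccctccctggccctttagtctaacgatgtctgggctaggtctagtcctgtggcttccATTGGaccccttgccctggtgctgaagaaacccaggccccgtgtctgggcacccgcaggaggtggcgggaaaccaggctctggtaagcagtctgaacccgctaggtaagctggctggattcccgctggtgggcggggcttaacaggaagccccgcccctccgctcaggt
Srebf1, downstream start: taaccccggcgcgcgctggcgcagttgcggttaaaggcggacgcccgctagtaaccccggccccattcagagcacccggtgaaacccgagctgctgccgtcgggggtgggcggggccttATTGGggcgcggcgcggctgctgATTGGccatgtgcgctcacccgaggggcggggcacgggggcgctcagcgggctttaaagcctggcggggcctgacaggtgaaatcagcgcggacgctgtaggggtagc
Srebf2: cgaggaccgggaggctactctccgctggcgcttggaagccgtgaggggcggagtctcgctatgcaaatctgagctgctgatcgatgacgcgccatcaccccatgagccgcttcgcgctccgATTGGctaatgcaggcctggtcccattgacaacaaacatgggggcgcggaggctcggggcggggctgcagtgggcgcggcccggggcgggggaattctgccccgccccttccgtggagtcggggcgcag
The upstream Srebf1 window held 1 CCAAT box and the downstream one held 2, while 34.0% of the 33469 rat windows of this length held at least 1. The sterol regulatory element was searched as TCACNCCAC on both strands and was found in 0 of the 7 windows of the 6 members with an entry (Srebf1, Srebf2, Scd, Acly, Me1 and Insig1), against 0.974% of all windows. The E-box CACGTG was found in Insig1 alone among these windows (5.59% of all windows), and the GC box GGGCGG was found in 6 of the 7 (30.5%). These are letter matches in short windows, and 3′ libraries sum the transcripts of both Srebf1 starts, so the starts cannot be told apart in the counts. Fasn, Acaca and Elovl6 were not matched.

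The chimera library held 13299 barcodes with 118872850 unique molecular identifiers (UMIs), and the SD rat library 10117 barcodes with 70957559 UMIs. After filtering, 11730 chimera barcodes were left, of which 8230 had at most 20% of their UMIs on mouse genes and are called chimera rat cells, 1847 had at least 80% and are called chimera mouse cells, and 1653 were mixed. The SD rat kept 8816 barcodes, and 33 of the kept barcode sequences occurred in both libraries. Clusters were named from marker genes as myofibre-like, FAP-like (fibro-adipogenic progenitor) and so on, written below without the suffix. Levels are given as CPM, counts per 1000000 UMIs of the cell's own species, with UMIs summed over the barcodes of a class.

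In myofibre barcodes Srebf1 was the member that stood apart. It had 220 UMIs in 833 chimera rat barcodes, or 46.6 CPM (40.7 to 53.2), and 45 UMIs in 1525 SD rat barcodes, or 6.84 CPM (4.99 to 9.16). The log2 ratio of chimera rat over SD rat was 2.60 (2.18 to 3.04) on the log2(CPM + 1) scale, or 6.07-fold, and the 2 counting intervals of the level did not overlap. Among the 4015 genes with at least 100 UMIs over both animals in this class it had the second highest ratio, and relative to the median of those genes (-0.18) it stood 2.79 higher. Of the 9 members, 3 reached 100 UMIs here, 1 of the 3 was at least 2-fold higher in the chimera rat barcodes and 0 were at least 2-fold lower. Over all genes in the class, 0.648% were at least 2-fold higher and 5.4% at least 2-fold lower. Because Srebf1 was picked from this contrast, nothing is read from its count against those shares.

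**Figure D1:**
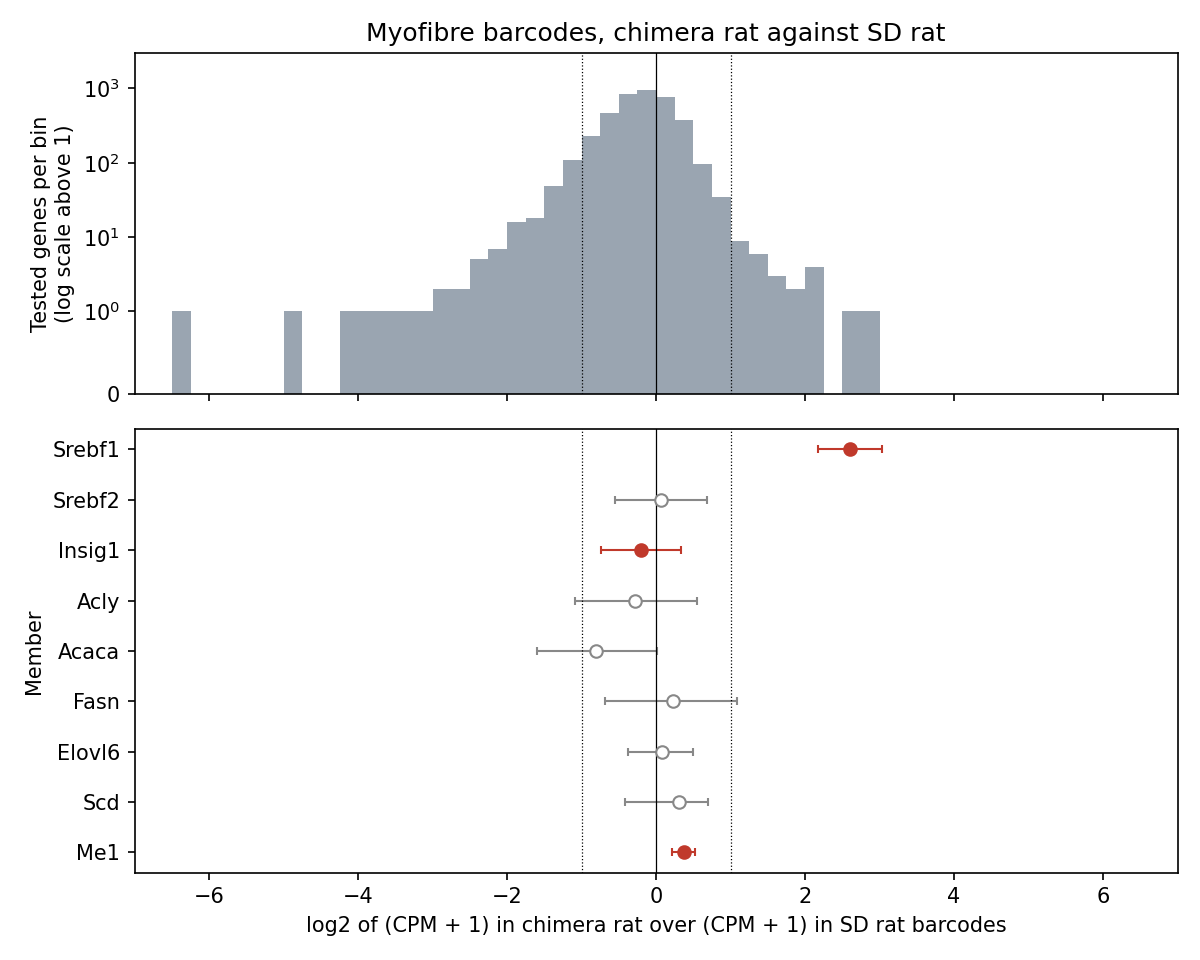
Myofibre barcodes, log2 of (CPM + 1) in chimera rat over SD rat. The upper panel counts all 4015 tested genes in bins (log scale), and the lower panel places the 9 members with 95% counting intervals, filled where the gene had at least 100 UMIs; dotted lines mark 2-fold, and Srebf1 at 2.60 lies alone beyond them.

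Clusters took the myofibre name from a list of 18 markers, so the level of these markers is no separate check of the name. Of the 18, 15 were in the rat table, and they summed to 402691 CPM in chimera rat and 372279 CPM in SD rat barcodes. Srebf1 UMIs were spread over many barcodes. It was found in 185 of 833 chimera rat myofibre barcodes, a share of 22.2% (19.4 to 25.2), and in 43 of 1525 in the SD rat, a share of 2.82% (2.05 to 3.78). Of the chimera rat barcodes, 156 had 1 UMI, 26 had 2, 2 had 3 to 5 and 1 had 6, while in the SD rat 41 had 1 and 2 had 2. Median depth was 4874 rat UMIs in chimera rat and 3635 in SD rat myofibre barcodes. With every barcode thinned to 1000 UMIs, leaving out 7 chimera rat and 97 SD rat barcodes, 46 of 826 (5.57%) and 9 of 1428 (0.630%) still held a Srebf1 UMI. For comparison, the chimera rat vascular endothelial barcodes, with a median depth of 3446, held a Srebf1 UMI in 5.13%, and thinned to 1000 UMIs in 1.37%. The smaller B, mast and Schwann or glial classes, with medians of 4268, 4025 and 3931, were nearer in depth to the myofibre barcodes.

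Depth, cluster and myosin heavy chain were examined within the class. The barcodes of each animal were split by depth into 3 groups of near equal size. In the shallowest, middle and deepest group of the chimera rat Srebf1 stood at 61.9, 48.0 and 40.0 CPM, and in those of the SD rat at 12.4, 4.29 and 6.68 CPM. The lowest chimera rat group was above the highest SD rat group, and their counting intervals (32.5 to 48.8 and 6.43 to 21.7) did not overlap. By cluster, the large cluster of the chimera rat (716 barcodes, led by Mylpf and Myl1) had 50.3 CPM and the small one (117 barcodes, led by Myl2 and Tnnt1) had 24.7 CPM (14.4 to 39.6). In the SD rat, the Myh4-led cluster (552 barcodes) had 13.6 CPM (9.28 to 19.2) and the Myl1-led cluster (696 barcodes, with Myoz1) had 4.11 CPM (2.12 to 7.18). The SD rat cluster led by Mb and Csrp3 held 0 Srebf1 UMIs in 213 barcodes, with an upper bound of 3.49 CPM, and the Tnnt1-led cluster held 1 UMI in 64. The intervals of the 2 chimera rat clusters did not overlap, while the Tnnt1-led cluster of the SD rat (0.105 to 23.1) overlapped both its Myh4-led and its Myl1-led cluster. Myl2 and Tnnt1 are genes of slow fibres, but few barcodes of either animal had most of their myosin on the slow heavy chain Myh7, so the clusters are called by their leading genes. Where the myosin heavy chain with most UMIs was Myh4, that of the fastest fibres, the levels were 50.0 CPM over 726 chimera rat barcodes and 7.98 CPM over 1235 SD rat barcodes, a log2 ratio of 2.50 (2.07 to 2.95). Myh7 and Myh2 barcodes were too few for a comparison, with 13 and 9 in the chimera rat and 31 and 17 in the SD rat, and Myh1 is not a gene of the rat table.

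**Figure D2:**
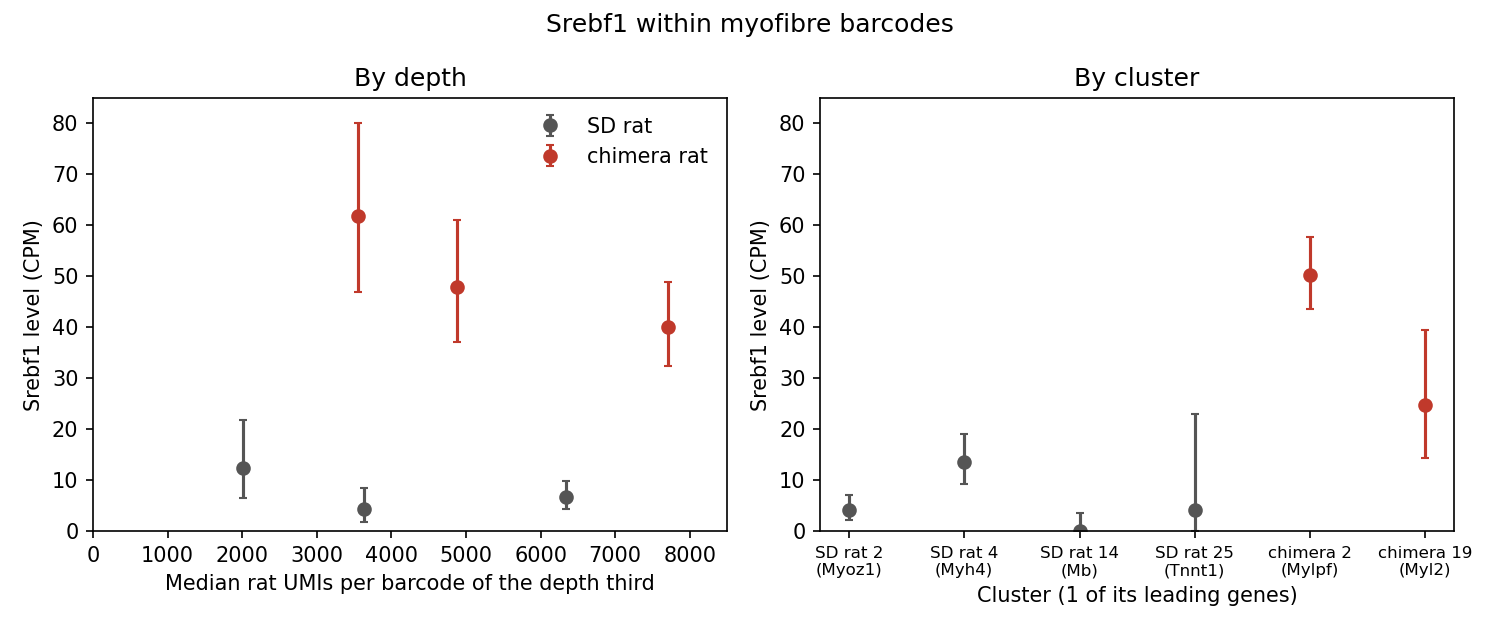
Srebf1 level (CPM) within myofibre barcodes, with 95% counting intervals, for 3 groups of barcodes by depth (left) and for each myofibre cluster (right). All 5 chimera rat points lie above the SD rat points, which run from 0 to 13.6 CPM, although the interval of the Myl2-led chimera rat cluster (14.4 to 39.6) overlaps those of some SD rat points.

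Other quantities differed between the same 2 sets of myofibre barcodes, and their part in the Srebf1 result was not tested. All 12 vascular endothelial markers in the table had UMIs in both animals, and they summed to 46.6 CPM in chimera rat and 203 CPM in SD rat barcodes. The 12 macrophage markers summed to 79.7 and 28.4 CPM, with Fcgr1a at 0 in the SD rat. In the 676 chimera rat and 1360 SD rat barcodes without a macrophage marker UMI, Srebf1 stood at 46.0 and 6.33 CPM, a log2 ratio of 2.68. In the 651 and 731 barcodes without a vascular endothelial marker UMI it stood at 46.4 and 7.85 CPM, a log2 ratio of 2.42. A barcode without a marker UMI can still hold RNA of those cells, and the part of such RNA was not tested. Of the 12 adipocyte markers, 7 had 0 UMIs in each animal, among them Adipoq, Plin1, Lep and Retn in both, and the list summed to 30.7 and 139 CPM, mostly Fabp4, which endothelial cells also express. Erythroid markers summed to 52.8 and 285 CPM. Of 8 dissociation stress genes, all tested, 2 were at least 2-fold lower in the chimera rat (Fos at -1.76 and Fosb at -1.47, log2), and the median of the list was -0.72. Over all genes in the class, 5.4% were at least 2-fold lower. The median share of mitochondrial UMIs was 0.307% in chimera rat and 0.750% in SD rat myofibre barcodes.

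The chimera table holds rat and mouse genes and the SD rat table rat genes alone, so rat reads placed on a mouse gene can be seen only in the chimera. The paper describes a combined mouse and rat reference. Whether the SD rat library was mapped to it as well was not settled here. In chimera rat myofibre barcodes 5 of 225 Srebf1 UMIs fell on mouse Srebf1 (2.22%, 0.725 to 5.11), and with those 5 counted as rat Srebf1 the log2 ratio was 2.56. Moving the species limit to 10% of UMIs on mouse genes gave 2.55, and calling each barcode by its majority species gave 2.58. The 10% limit lies below the median share over all chimera rat cells (11.2%), so it left out most of those cells. In the RefSeq annotation Srebf1 overlaps Rai1, and whether the counting used strand is not given in the sources used here. Rai1, which encodes a chromatin regulator, had 7.42 CPM in chimera rat and 8.21 CPM in SD rat myofibre barcodes, a log2 ratio of -0.13 (-0.71 to 0.44). The part of the overlap in the Srebf1 counts was not tested.

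The paralog Srebf2 was near the bottom of its range in myofibre barcodes of both animals. It had 31 UMIs, or 6.57 CPM (4.46 to 9.32), in chimera rat and 41 UMIs, or 6.24 CPM (4.47 to 8.46), in SD rat barcodes, a log2 ratio of 0.06 (-0.55 to 0.68) from too few UMIs to enter the tested set. Insig1, a retention protein of both SREBPs and itself a classical SREBP target, had 40 and 65 UMIs, or 8.47 and 9.89 CPM, with a log2 ratio of -0.20 (-0.74 to 0.33). That value turned to 1.66 when predicted doublets were kept, a setting in which the Myl2-led cluster of the chimera rat had a median of 12425 UMIs and raised 10 FAP markers. Neither gene thus differed between the animals beyond counting error in the main comparison, and both intervals were wide because the counts were small.

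The enzymes of fatty acid synthesis were at or near the detection limit in myofibre barcodes. Acly had 11 UMIs in chimera rat and 20 in SD rat barcodes (2.33 and 3.04 CPM). Acaca had 9 and 27 (1.91 and 4.11 CPM), a log2 ratio of -0.81 (-1.59 to 0.02). Fasn had 5 UMIs in each animal (1.06 and 0.760 CPM), Elovl6 had 1 in each, and Scd had 2 and 1. None of these 5 reached 100 UMIs, all 5 counting intervals of the ratio held 0, and a 2-fold change in Fasn upward, or in Acly or Acaca downward, was within the interval. At such counts the 1 CPM added to each level draws a ratio toward 0, and a change in Fasn, Elovl6 or Scd was not detectable at this depth.

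Me1 was the exception among the enzymes. It had 666 UMIs in 408 of 833 chimera rat myofibre barcodes (49.0%), or 141 CPM (131 to 152), and 715 UMIs in 498 of 1525 SD rat barcodes (32.7%), or 109 CPM (101 to 117). The log2 ratio was 0.37 (0.22 to 0.53), and it ranked 295th of the 4015 genes. The intervals did not overlap, while the size of the difference stayed under 2-fold. Within the class Me1 stood at 147 CPM in the Mylpf-led and 105 CPM in the Myl2-led cluster of the chimera rat, with no overlap. In the SD rat it stood at 147 CPM (132 to 163) in the Myh4-led cluster, above 96.6 CPM (85.6 to 109) in the Myl1-led and 62.1 CPM (34.8 to 102) in the Tnnt1-led cluster, and the latter pair overlapped.

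Genes around the pathway were read from lists, with tested meaning at least 100 UMIs in the class. Of 8 genes of SREBP processing 2 were tested and 0 passed 2-fold: Mbtps1, the site-1 protease that cuts SREBPs, at a log2 ratio of -0.36 (-0.90 to 0.17), and Rnf139 at -0.43, a gene whose counts are uncertain because it overlaps Tatdn1. Of the 15 upstream factors with a rat gene, 8 were tested, with a median of -0.38, and 1 passed 2-fold. This was Bhlhe40, a repressor of the basic helix-loop-helix family, at 9.32 CPM in chimera rat and 22.2 CPM in SD rat barcodes (log2 ratio -1.17). Over all genes in the class, 5.4% were at least 2-fold lower. The insulin-signalling kinase Akt2 (-0.05), the ChREBP partner Mlx (0.02) and the nuclear factor Y subunit Nfyb (-0.54) were less than 2-fold apart. None of the 8 exceeded 0.02 upward.

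Most genes in the lists of lipid enzymes had too few UMIs to be tested, and most of those tested were less than 2-fold apart. Of the 23 further fatty acid synthesis genes with a rat gene, 5 were tested and 0 passed 2-fold, with a median of -0.22. Tecr, which completes the elongation cycle of fatty acids, stood at 200 and 117 CPM (log2 ratio 0.77, 0.63 to 0.91), the NADPH-producing Pgd at -0.07 and the acyl-CoA synthetase Acsl1 at -0.60. Of 21 sterol synthesis and uptake genes 3 were tested and 0 passed 2-fold, with Fdft1 at 0.29, Idi1 at -0.06 and Pmvk at -0.16. Of 17 glycerolipid genes 5 were tested and 1 passed 2-fold, with a median of 0.20: Dgkz, a kinase that turns diacylglycerol into phosphatidic acid, at 132 CPM in chimera rat and 28.1 CPM in SD rat barcodes (log2 ratio 2.19, 1.96 to 2.43). Over all genes in the class, 0.648% were at least 2-fold higher. Dgkz was also higher in FAP, at 23.0 and 9.94 CPM (1.14, 0.96 to 1.31), whereas Srebf1 there differed by 0.49. Agpat1, which makes phosphatidic acid by acylation, stood at 0.61, and Chpt1, of phosphatidylcholine synthesis, at -0.37.

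Of 14 genes of fatty acid oxidation 13 were tested, 0 were at least 2-fold higher and 2 at least 2-fold lower in the chimera rat, where 5.4% of all genes in the class were at least 2-fold lower. The median of the list was -0.70, against -0.18 for all tested genes. Pdk4, the kinase that shuts pyruvate dehydrogenase in fasting, had 54 UMIs, or 11.4 CPM, in chimera rat and 323 UMIs, or 49.1 CPM, in SD rat barcodes, a log2 ratio of -2.01 (-2.42 to -1.62). Acaa2, the mitochondrial 3-ketoacyl-CoA thiolase, stood at 39.4 and 83.6 CPM (-1.07). Hadhb, of the trifunctional protein, was at -0.17, and Etfdh, which passes electrons from fatty acid oxidation to the respiratory chain, was at 0.16. Clusters made up different parts of the class, with 117 of 833 barcodes in the Myl2-led cluster of the chimera rat, and 213 (Mb-led) and 64 (Tnnt1-led) of 1525 in the SD rat. The part of that make-up in these values was not tested.

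Across the other cell types Srebf1 stayed below its chimera rat myofibre level but was not the same in all. In the SD rat it ran from 4.31 CPM in mast cells to 15.6 CPM (7.78 to 27.9) in T or NK cells over 13 classes. Next in order came myeloid cells at 14.4 (11.3 to 18.0), Schwann or glial cells at 11.5 (5.27 to 21.9) and myogenic progenitors at 11.3 (7.39 to 16.6), and each neighbour's interval overlapped the next. FAP, at 7.60 CPM (6.73 to 8.55), lay below myeloid cells with no overlap. Myofibres of the SD rat, at 6.84 CPM, were among the lower classes. In the chimera rat the order was led by myofibres at 46.6 CPM, followed by Schwann or glial cells at 26.3 (15.1 to 42.8) from 16 UMIs, myeloid cells at 18.4 (15.9 to 21.1) and T or NK cells at 14.3 (11.4 to 17.8). The intervals of myofibres and Schwann or glial cells overlapped, those of myofibres and myeloid cells did not, and lymphatic endothelial cells were lowest at 2.83 CPM from 2 UMIs.

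**Figure D3:**
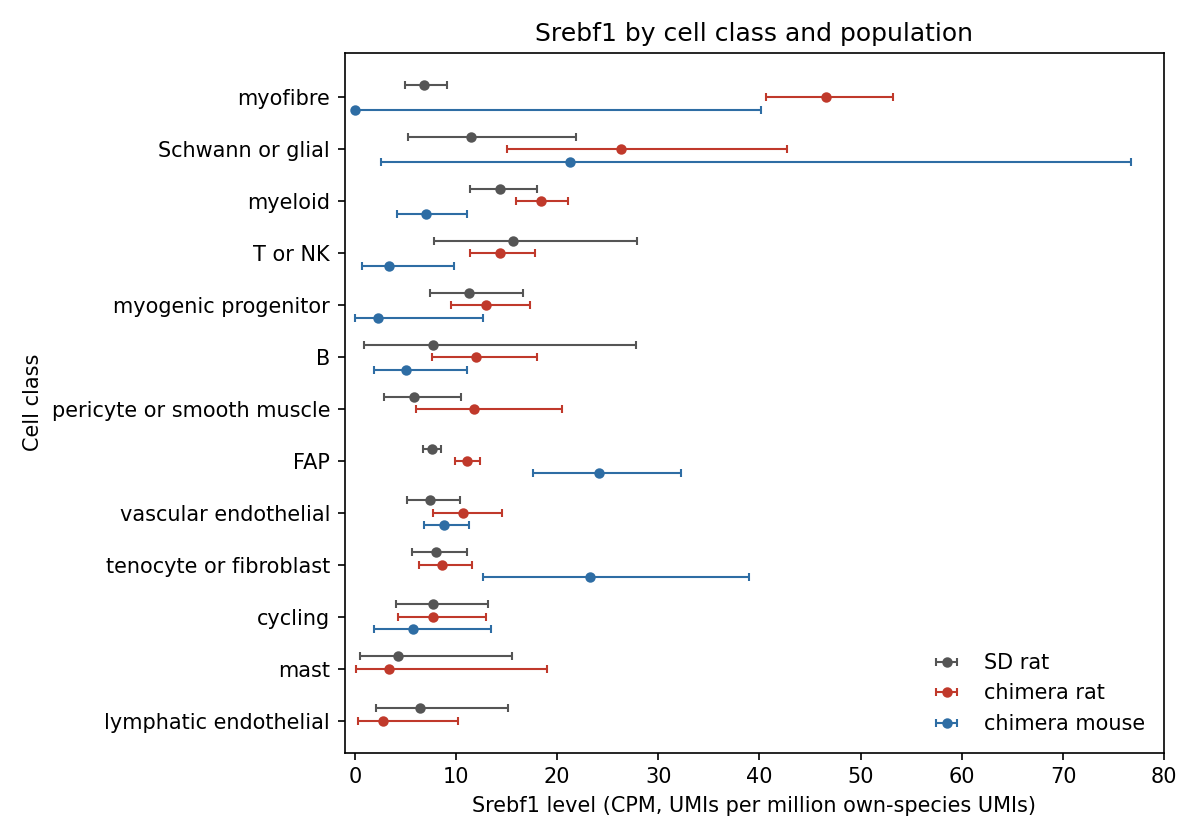
Srebf1 level in CPM by cell class in SD rat, chimera rat and chimera mouse cells, with exact 95% Poisson intervals. Chimera rat myofibre barcodes sit at 46.6 CPM, while all SD rat classes lie between 4.31 and 15.6 CPM.

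Outside myofibres Srebf1 reached 100 UMIs over both animals in 2 classes. In FAP it had 316 UMIs, or 11.0 CPM (9.86 to 12.3), in the chimera rat and 276 UMIs, or 7.60 CPM (6.73 to 8.55), in the SD rat, a log2 ratio of 0.49 (0.27 to 0.70). In myeloid cells it had 201 and 77 UMIs, or 18.4 and 14.4 CPM, a log2 ratio of 0.33 (-0.03 to 0.71), which turned to -0.15 at a clustering resolution of 0.5. Schwann or glial cells, with 16 and 9 UMIs, gave 1.13 (-0.07 to 2.36) and were not tested. The 12 macrophage markers summed to 912 CPM in the chimera rat Schwann or glial barcodes, with none at 0, and to 19.2 CPM in the SD rat, with 7 at 0. Their part in that value was not tested.

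The other members had their own order of classes, which the 2 animals shared in outline. Fasn was highest in Schwann or glial cells, at 60.9 CPM (42.9 to 83.9) in the chimera rat and 55.0 CPM (39.8 to 74.1) in the SD rat, then in myogenic progenitors (30.2 and 37.9 CPM) and FAP (27.5 and 27.7 CPM). The intervals of Schwann or glial cells and myogenic progenitors overlapped in the SD rat and not in the chimera rat. Myofibres were lowest of the 13 classes in both animals, though the interval of mast cells, from 3 UMIs in each animal, overlapped theirs. Elovl6 was led by Schwann or glial cells (49.4 and 44.8 CPM) and T or NK cells (32.5 and 43.9 CPM), with overlapping intervals. Srebf2 was likewise highest in Schwann or glial cells (112 and 105 CPM), and Acly was highest in FAP (56.5 and 59.5 CPM). Insig1 was highest in FAP in the chimera rat at 232 CPM (227 to 238) and about equally in myogenic progenitors (277 CPM) and FAP (276 CPM) in the SD rat. Acaca was led by B cells in the chimera rat (31.4 CPM) and by Schwann or glial and B cells in the SD rat (39.7 and 38.5 CPM).

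Scd was highest in B cells and Me1 in myofibres in both animals. Scd had 135 UMIs in all chimera rat cells and 54 in all SD rat cells. B cells stood at 32.4 CPM (24.8 to 41.5) from 62 UMIs and 15.4 CPM (4.19 to 39.4) from 4 UMIs. In the SD rat that interval overlapped the one of Schwann or glial cells, at 7.68 CPM (2.82 to 16.7). In FAP Scd had 7 and 6 UMIs among 2590 and 3198 barcodes, although Scd2, a second desaturase gene outside the set, stood there at 93.6 and 71.5 CPM. A further 9 UMIs of the chimera rat FAP fell on mouse Scd1 (56.25%, 29.9 to 80.2). Me1 was highest in myofibres in each animal, and the next class was cycling cells in the chimera rat (25.5 CPM, 18.6 to 34.0) and pericyte or smooth muscle cells in the SD rat (24.0 CPM, 17.5 to 32.2). Myofibres were therefore lowest for Fasn, Acly, Insig1, Acaca and Srebf2 and highest for Me1 in both animals, and highest for Srebf1 in the chimera rat alone. For Fasn and Acaca the intervals of mast cells and myofibres overlapped in both animals. Mast cells stood at 3.41 CPM of Acaca from 1 UMI in the chimera rat and 4.31 CPM from 2 in the SD rat.

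**Figure D4:**
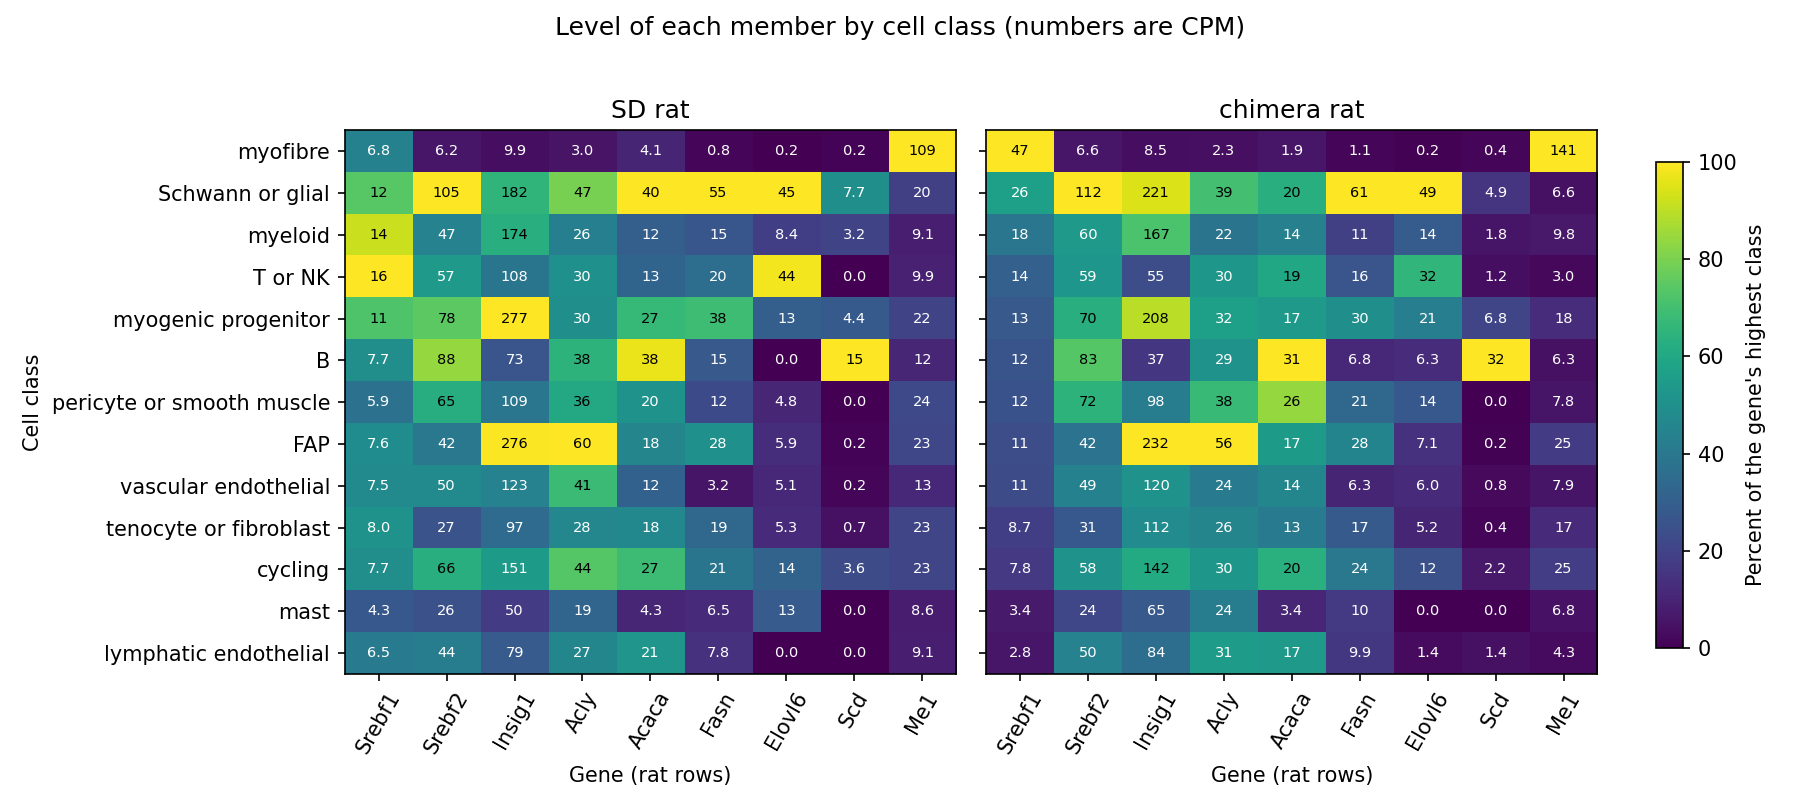
Level of each member by cell class in SD rat and chimera rat cells. Numbers are CPM and colours give the percent of that gene's highest class, so columns are not to be compared with each other; the myofibre row is at the top of the colour scale for Me1 in both animals and for Srebf1 in the chimera rat, and lowest of its column for Srebf2, Insig1, Acly, Acaca and Fasn in both. For Acaca and Fasn the counting intervals of mast cells and myofibres overlap in both animals.

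Over all classes and members, 52 values in 12 classes had at least 100 UMIs, and 1 of the 52, Srebf1 in myofibres, was at least 2-fold apart. Beside myofibres, the classes differed in how many of all their tested genes passed 2-fold. The share at least 2-fold higher in the chimera rat was 0.783% in FAP, 0.853% in myogenic progenitors, 0.909% in tenocytes or fibroblasts, 1.12% in myeloid and 1.24% in cycling cells, 1.97% in both Schwann or glial and lymphatic endothelial cells, 2.12% in pericyte or smooth muscle, 2.44% in vascular endothelial, 3.68% in B and 4.78% in T or NK cells. The share at least 2-fold lower was 1.55%, 2.07%, 1.77%, 2.03% and 2.81% in the first 5 of these, 3.05% in Schwann or glial, 3.07% in lymphatic endothelial, 8.37% in pericyte or smooth muscle, 2.69% in vascular endothelial, 7.19% in B and 8.03% in T or NK cells. Mast cells (1.83% and 5.01%) had no member with 100 UMIs. The other 51 ranged from -0.96 to 0.71 with a median of -0.04. By counting error alone, 7 of the 52 intervals lay above 0, 8 below and 37 held 0. Insig1 had 55.0 CPM in the chimera rat against 108 CPM in the SD rat in T or NK cells (log2 ratio -0.96, -1.32 to -0.58). In the same barcodes the 11 FAP markers summed to 366 against 3289 CPM (7 of 9 tested at least 2-fold lower), the 15 myofibre markers to 6791 against 22702 CPM (11 of 12 lower) and the 10 cycling markers to 523 against 109 CPM (9 of 10 higher), and dissociation stress genes had a median of -1.55. Insig1 itself was high in FAP, and the part of these markers in its value was not tested. Insig1 also stood at 208 against 277 CPM in myogenic progenitors (-0.41), where erythroid markers summed to 15949 against 156 CPM, and at 232 against 276 CPM in FAP (-0.24), where the 8 dissociation stress genes had a median of 0.77. In tenocytes or fibroblasts Insig1 went the other way, at 112 against 96.6 CPM (0.22, 0.04 to 0.40). Acly stood at 23.6 against 40.7 CPM in vascular endothelial cells (-0.76). There cycling markers summed to 360 against 39.2 CPM (9 of 9 tested at least 2-fold higher), myofibre markers to 10762 against 29246 CPM (11 of 13 lower) and erythroid markers to 6314 against 18264 CPM. Elovl6 stood at 14.4 against 8.40 CPM in myeloid cells (0.71, 0.26 to 1.16), where cycling markers summed to 159 against 109 CPM and erythroid markers to 1160 against 201 CPM. In the same barcodes neutrophil or monocyte markers summed to 2446 against 5531 CPM (5 of 10 tested at least 2-fold lower, 0 higher). T or NK markers summed to 244 against 195 CPM (3 of 6 tested at least 2-fold higher, 0 lower). The part of these marker differences in the values was not tested. Fasn, tested in 5 classes, had no interval that left out 0, and its values ran from -0.34 in myeloid cells to -0.01 in FAP.

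**Figure D5:**
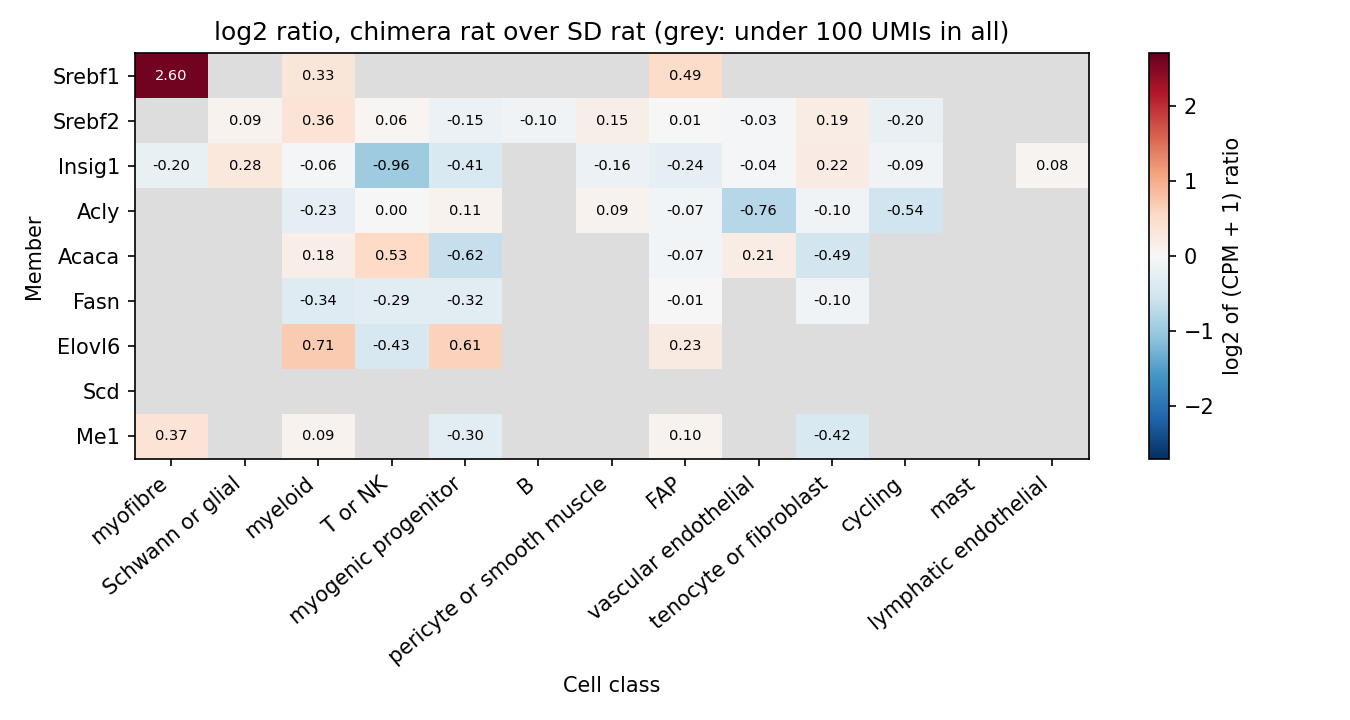
log2 ratio of (CPM + 1), chimera rat over SD rat, for each member and class with at least 100 UMIs over both animals. Srebf1 in myofibres, at 2.60, is the only value at or beyond 1, and the other 51 lie between -0.96 and 0.71.

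Myofibre barcodes of the chimera's mouse cells were few. The 29 barcodes held 91950 mouse UMIs, and 8 of the 9 mouse members had 0 UMIs. For Srebf1 the exact upper bounds were 40.1 CPM and 11.9% of barcodes with a UMI, which at a median of 2407 UMIs limits detection and not the share of fibres with the transcript. Me1 had 8 UMIs in 6 of the 29, or 87.0 CPM (37.6 to 171), and was again highest in myofibres. Levels of mouse genes rest on another annotation and are set beside the rat values without a comparison. In mouse cells Srebf1 was highest in FAP at 24.1 CPM (17.6 to 32.2) and in tenocytes or fibroblasts at 23.2 CPM (12.7 to 39.0), and it stood at 8.85 CPM in vascular endothelial cells, the largest mouse class with 1081 barcodes. Mouse Scd1 was highest in B cells at 129 CPM (109 to 151), found in 77 of 132 barcodes, followed by FAP at 79.2 CPM and tenocytes or fibroblasts at 54.7 CPM. B cells thus led for Scd in rat cells, from 4 UMIs in the SD rat, and for Scd1 in mouse cells. Fasn (33.2 CPM) and Acly (76.0 CPM) were highest in mouse FAP. The 26 mouse Schwann or glial barcodes held 3 Fasn and 4 Acly UMIs, too few to place them below FAP. Of the Srebf1 UMIs of mouse cells, 8.62% fell on the rat gene.

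The share of a member's UMIs on the gene of the other species bears on all ratios between the animals. Over all chimera rat cells it was 10.6% for Scd, 8.96% for Acaca, 6.54% for Elovl6, 3.39% for Srebf2, 3.00% for Acly, 2.49% for Me1, 2.46% for Srebf1, 1.08% for Fasn and 0.894% for Insig1. Over all genes the median share per chimera rat barcode was 11.2%. Misplaced rat reads and free mouse RNA cannot be told apart in these shares.

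Genes whose levels followed Srebf1 most closely were sought over 26 profiles (13 classes in 2 rat populations) among 11939 genes, as Pearson's r of log2(CPM + 1). Dmac1 (0.71), Zfp641 (0.64), Sdhaf2 (0.63), Nhej1 (0.62) and Pcgf1 (0.62) came first. None of them is a member, and Dmac1 and Sdhaf2 act in assembly of mitochondrial respiratory complexes. Among the members, Elovl6 (0.36), Me1 (0.24) and Scd (0.23) had the highest r with Srebf1, while Fasn stood at 0.07, Srebf2 at 0.02 and Acly at -0.27. The closest genes to Fasn by the same measure were the sterol synthesis genes Cyp51 (0.91) and Sqle (0.90), followed by Acp6, Msmo1 and Ptprs, and among the members Insig1 (0.83), Acly (0.77) and Srebf2 (0.75). The profiles share libraries and differ in depth. They include the chimera rat myofibre level of Srebf1 (46.6 CPM), the highest of the 26 and part of the contrast from which the set was proposed. These values are therefore a description and no separate support for that contrast.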

How the data were processed

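Single-cell libraries of 1 rat-mouse chimera and 1 SD rat were deposited by the authors as unnormalized UMI counts per gene and barcode. The submitters' processing notes name Cell Ranger 7.1.0 and the builds mRatBN7.2 and GRCm39. The chimera table holds rat and mouse genes, the SD rat table rat genes alone. No column belonged to another sample (0 columns left out).

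Barcodes with at least 500 UMIs, at least 200 genes and at most 20% mitochondrial UMIs were kept. Doublets predicted by Scrublet in scanpy 1.11.5 (8% expected) were removed, namely 444 chimera barcodes (3.65%) and 164 SD rat barcodes (1.83%). Each population was clustered alone (2000 variable genes, 30 components, 15 neighbours, leidenalg 0.10.2 at resolution 1) and clusters were named from marker lists; 173 chimera rat barcodes stayed unnamed, and the scoring rule was set after clusters had been seen. UMIs were summed per class and expressed as CPM over own-species UMIs. Ratios are log2 of (CPM + 1), and a gene was tested with at least 100 UMIs over both animals and called at 2-fold. With 1 library a group there is no test across animals. PCR, digestion and animal spread are outside the intervals, which cover counting error only (exact Poisson, or Clopper-Pearson for shares and ratios). The log2 ratio, its interval and the 2-fold rule were tested on simulated counts of the myofibre class, without spread between animals. Filtering, doublet and species calls, clustering and naming were not tested in that way.

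The members and lists were chosen with earlier results of these data known. Named genes are the members, the 2 highest and 2 lowest tested genes of each pathway list in myofibres, and the 5 genes most correlated with Srebf1; the genes closest to Fasn, Scd2, Rai1 and Dgkz in FAP were singled out after their values were seen.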

Additional observations from a re-analysis of the deposited data

Results flagged for a closer look

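A signal appeared in barcodes that no comparison used. Among the chimera barcodes of mixed species, 590 had at least 5% of their UMIs on myofibre markers. In these, rat Srebf1 stood at 32.8 CPM of rat UMIs (23.9 to 43.9), from 45 UMIs in 38 barcodes with a median of 1403.5 rat UMIs. By the same marker rule it stood at 6.82 CPM (5.25 to 8.71) in 2463 SD rat barcodes and at 39.5 CPM (34.8 to 44.6) in 1024 chimera rat barcodes. The interval in mixed barcodes overlapped that of the chimera rat barcodes and not that of the SD rat barcodes. Mouse Srebf1 in the mixed barcodes had 10 UMIs, or 8.22 CPM of mouse UMIs (3.94 to 15.1). Mixed barcodes can hold material of more than 1 cell, and the source of this signal was not tested.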

How the results depend on the processing

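The Srebf1 log2 ratio in myofibres kept its direction under every alternative run. It was 1.75 with a pseudocount of 10 CPM in place of 1, and otherwise lay between 2.36 (myofibre barcodes by marker share) and 3.02 (each barcode thinned to 1000 UMIs). The thinned, Myh4 and marker-free alternatives were chosen after seeing the data. The members past 2-fold in myofibres, 1 in the report, were 2 with doublets kept (Insig1 joined at 1.66) and 0 with a minimum of 500 summed UMIs, where only Me1 was left to test. Over all classes the values past 2-fold, 1 in the report, were 2 with the mouse UMIs added (Insig1 in T or NK cells at -1.02), 2 with doublets kept and 2 with each barcode weighted equally (Acaca in T or NK cells at 1.23). Of the other values, from 0 of 51 (no mitochondrial genes in the denominator) to 12 of 48 (species limits of 90% and 10%) moved beyond their counting interval. The latter limits left out most chimera rat cells, whose median share of mouse UMIs was 11.2%. Under them Elovl6 in myogenic progenitors went from 0.61 to -1.19, where it had fewer than 100 UMIs and so was not counted among the values past 2-fold. The cause of the Srebf1 difference was not tested. Low counts limit Fasn, Elovl6, Scd, Acly and Acaca in myofibres. No paired analysis was possible because each group holds 1 library.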
